A study of Mus musculus with 4 samples.

Results

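Kif26b, Frmd4a, Slc25a21, Garem1, Rnf220, Fto and Rpgrip1l are 7 of the 21900 protein-coding mouse genes of the RefSeq gene table used here. They were selected on measured values of these data, since regions enriched for trimethylation of lysine 9 on histone H3 (H3K9me3) covered more kb of them and their surroundings in naive CD8+ T cells than in cultured ones. The genes were thus chosen by their covered length on each day, which is given below as a description. The mark was mapped by native chromatin immunoprecipitation and sequencing (ChIP-seq), in which micrococcal nuclease cuts chromatin that was never cross-linked. All samples were wild-type CD8+ T cells from C57BL/6 mice, with no further genotype in the labels. The day 0 group was naive cells and the day 3 group was cells cultured in vitro with antibodies to CD3 and CD28 in the presence of IL-2. Each group had 1 ChIP library, made with the same antibody batch from 4000000 cells, and 1 input library, which was not analysed here. No replicate stands behind any value, so no test between days was made, and every difference is between 2 libraries. The labels give neither the age and sex of the mice nor whether animals were pooled.

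H3K9me3 marks constitutive heterochromatin and silenced repeats and genes, is deposited by methyltransferases of the Suv39h and Setdb1 families, and is read by HP1 proteins. In lymphocytes it is known for holding genes of other lineages and of other differentiation states in a silent form. Broad stretches of the mark over long genes do not by themselves tell whether a gene is transcribed. The authors' lists hold islands, which are runs of enriched windows merged into 1 region, each with the number of ChIP reads inside it. The day 0 list held 19989 islands with 3402787 reads and the day 3 list 47553 islands with 10423178 reads, so that of all bases in protein-coding genes islands covered 4.87% in naive and 9.03% in cultured cells. The labels put every library at roughly 100000000 paired-end reads, a nominal figure, and exact totals were not analysed here. The read density of an island is its reads divided by its length, uncorrected for library depth. Its median was 34.1 reads per kb in the day 0 list and 52.9 in the day 3 list. The least dense day 3 island held 34.1 reads per kb, and 50.4% of all day 0 islands were less dense than that. The label of CD8+ T cells could not be checked through expression, since a histone mark was measured. Of 9 genes that T cells express, most of them markers of the lineage (Cd8a, Cd8b1, Cd3d, Cd3e, Cd3g, Cd2, Lck, Ptprc and Zap70), islands covered only Ptprc, which is shared by all leukocytes (7.36 kb in naive and 18.9 kb in cultured cells). Of 9 genes defining other cells, Cd4 and Csf1r carried a day 0 island, over 10.6 and 3.6 kb, and no gene of that list carried a day 3 island. Among all protein-coding genes, 22.7% carried a day 0 island and 27.1% a day 3 island. Lists of 9 genes are too short to check the label against these shares.

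The 7 genes lie at 6 loci, because the bodies of Rpgrip1l and Fto are separated by only 75 bases, and 7 day 0 islands fall into the windows of both. Start sites are listed in the RefSeq promoter table (GRCm38.p6, which is mm10) for 6 of the 7 genes, as 10 windows running from 250 bases before to 50 bases after a start. Of these windows, 1 lay in a day 0 island and none in a day 3 island, against 2.35% and 3.14% of all 32851 windows. The genes were picked for their day 0 coverage, so these counts follow in part from that choice. The covered window belongs to the inner start of Slc25a21 (chr12:57160594-57160893, minus strand). All 300 of its bases lay in a day 0 island of 4.2 kb with 145 reads, or 34.5 reads per kb. That density is less than 1 read per kb above 34.1, the lowest in the day 3 list. Its Poisson interval, 29.1 to 40.6 reads per kb, holds that lowest density. The sequences below are the 250 bases before that covered start, the same stretch before 3 uncovered starts for contrast, and the 75 bases between Rpgrip1l and Fto. CpG dinucleotides, written CG and the same on both strands, are in capitals, since CpG-rich starts are usually free of this mark.
Slc25a21 inner start, chr12:57160644-57160893, minus strand: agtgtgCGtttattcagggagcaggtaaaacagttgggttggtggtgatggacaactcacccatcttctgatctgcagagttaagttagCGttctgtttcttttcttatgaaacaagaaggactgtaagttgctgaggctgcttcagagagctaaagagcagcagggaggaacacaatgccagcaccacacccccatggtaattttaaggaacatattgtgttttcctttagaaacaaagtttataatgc
Slc25a21 outer start, chr12:57197473-57197722, minus strand: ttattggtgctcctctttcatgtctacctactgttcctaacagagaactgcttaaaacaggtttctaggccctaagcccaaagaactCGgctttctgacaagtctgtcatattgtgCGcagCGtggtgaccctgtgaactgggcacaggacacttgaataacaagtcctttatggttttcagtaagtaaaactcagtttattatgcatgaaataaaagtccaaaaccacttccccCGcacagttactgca
Kif26b, chr1:178528875-178529124, plus strand: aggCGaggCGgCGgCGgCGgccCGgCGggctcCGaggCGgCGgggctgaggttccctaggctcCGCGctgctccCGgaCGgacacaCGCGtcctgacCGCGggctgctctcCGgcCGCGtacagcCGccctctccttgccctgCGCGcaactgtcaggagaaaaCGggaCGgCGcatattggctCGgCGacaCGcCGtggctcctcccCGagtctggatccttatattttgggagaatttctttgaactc
Frmd4a start at 4400976, chr2:4400726-4400975, plus strand: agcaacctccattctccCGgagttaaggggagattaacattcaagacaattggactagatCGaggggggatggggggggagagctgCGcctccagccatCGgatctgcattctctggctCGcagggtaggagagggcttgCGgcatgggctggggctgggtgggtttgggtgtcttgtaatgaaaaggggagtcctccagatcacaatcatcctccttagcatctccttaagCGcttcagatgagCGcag
Rpgrip1l to Fto, chr8:91313292-91313366, plus strand: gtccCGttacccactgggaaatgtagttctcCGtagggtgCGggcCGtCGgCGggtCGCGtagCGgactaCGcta

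The covered Slc25a21 stretch is poor in CpG, with 2 in 250 bases, and the outer Slc25a21 start has 4. The Kif26b stretch has 32 CpG, the Frmd4a stretch 8 and the shared 75 bases of Rpgrip1l and Fto 10. Over the full 300-base windows, CpG counts were 3 in the covered window and 2 to 38 in the 9 uncovered ones. The latter were 4 for the outer Slc25a21 start, 2, 8, 12 and 15 for Frmd4a, 2 for Rnf220, 38 for Kif26b, 23 for Fto and 22 for Rpgrip1l, beside a median of 7 over all windows and of 3 over the 772 windows in a day 0 island. Of all windows, 94.6% held at least 1 CpG. Of the 9 uncovered windows, 5 lay within 6 kb of a day 0 island and the other 4, of Frmd4a and Rnf220, 20.7 to 54.7 kb away. A day 0 island began 1.83 kb beyond the Kif26b window and 1.18 kb beyond the Frmd4a window shown, whereas the nearest day 3 islands were 31.0 and 118 kb away. At the first Frmd4a start the day 3 island was the nearer one, at 15.6 kb against 54.7 kb. At Fto the nearest island was 5.03 kb from the window on both days.

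**Figure D1:**
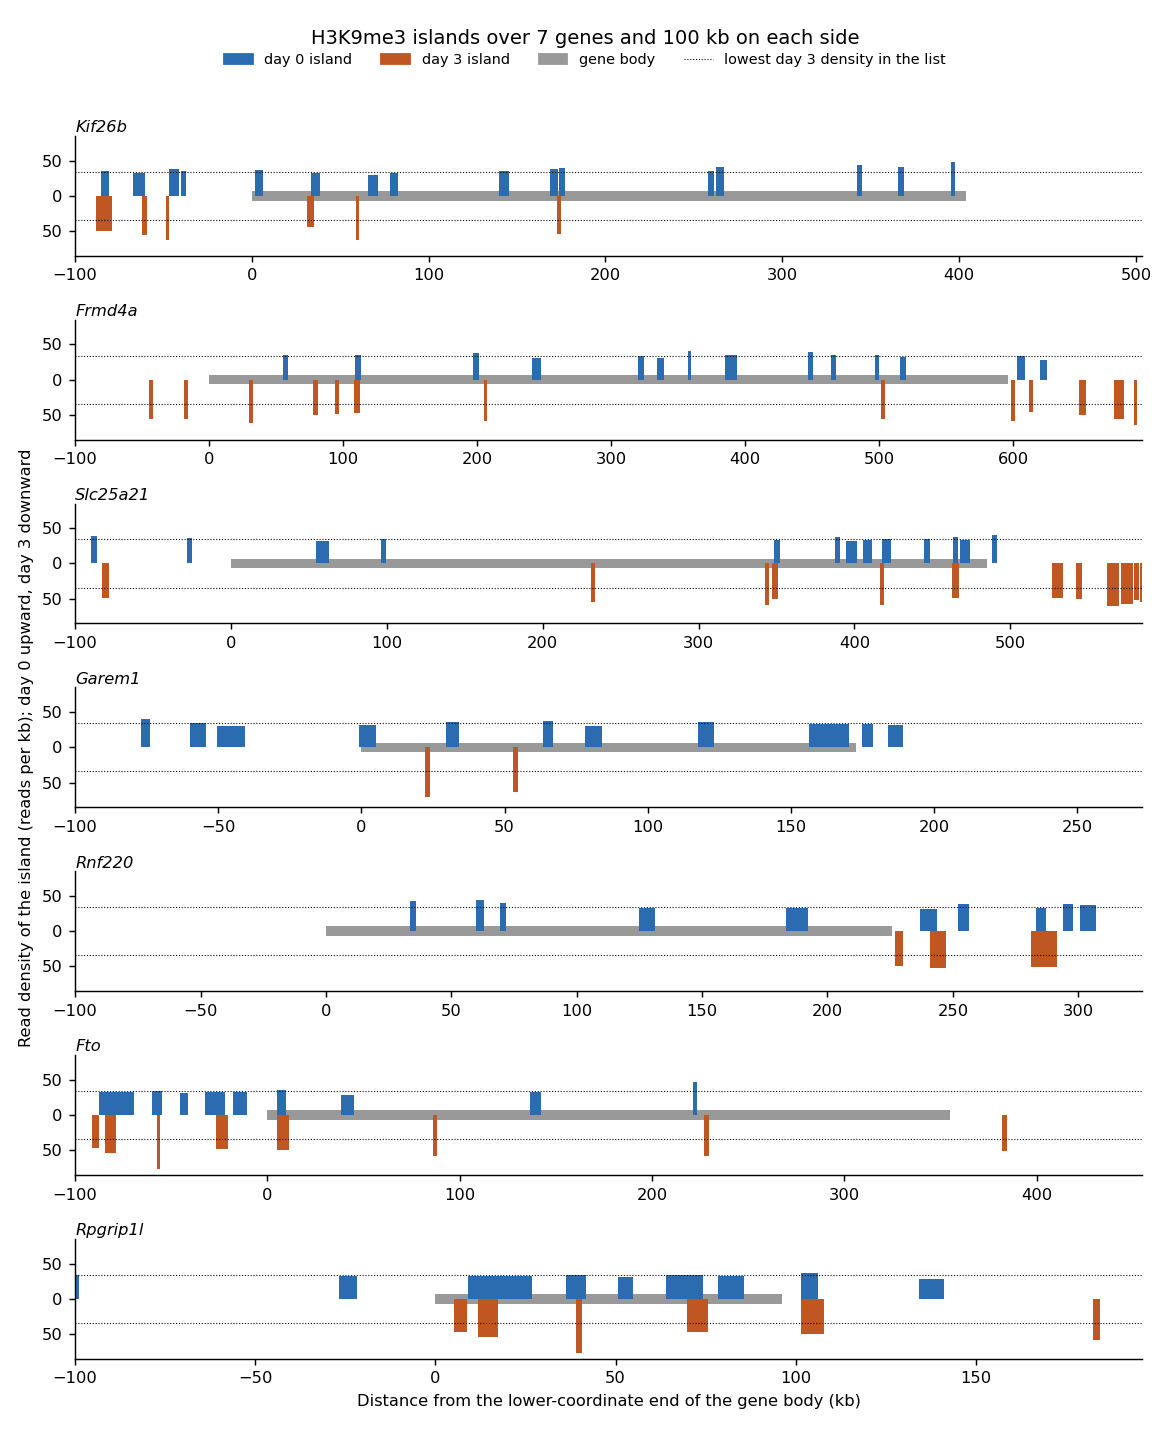
Islands over each gene body (grey bar) and 100 kb on each side, drawn by distance in kb from the lower-coordinate end of the body. Bar width is island length and bar height is reads per kb, upward for day 0 and downward for day 3. Day 0 bars outnumber day 3 bars within every body, and in Garem1 no bars of the 2 days meet.

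Over the gene body alone, all 7 genes were covered over more kb on day 0, which is what they were picked for. Among all 21900 protein-coding genes 12.1% had more covered kb in naive and 21.5% in cultured cells, while 22.7% carried any island in the day 0 list and 27.1% in the day 3 list. In 6 of the 7, all but Fto, the excess was at least 10 kb, a size that 1.42% of all genes reached towards day 0 and 6.95% towards day 3. The members are long genes. Among the 2759 protein-coding genes of at least 90 kb, 26.3% were covered more on day 0, 7.0% by at least 10 kb, and the median difference (day 0 minus day 3) was -2.8 kb. Ranked by this difference among all protein-coding genes, Kif26b stood at rank 2, Frmd4a at 3, Slc25a21 at 4, Garem1 at 5, Rpgrip1l at 15, Rnf220 at 29 and Fto at 382.

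**Figure D2:**
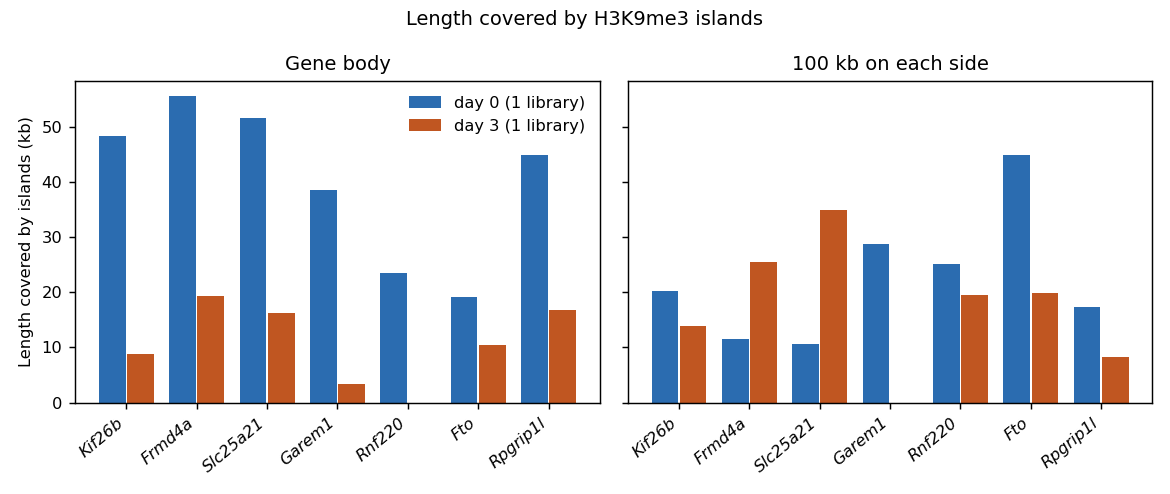
Length covered by islands in kb, over the gene body (left) and over the 100 kb on each side together (right), for each gene and day, with 1 library a bar and no error bar. Day 0 is higher in all 7 bodies, by the least in Fto (19.2 against 10.4 kb) and by the most in Kif26b (48.4 against 8.8 kb), while day 3 is higher in the flanks of Frmd4a and Slc25a21.

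Kif26b (chr1:178529125-178932857) encodes an atypical kinesin that binds microtubules and is known from kidney development. Its body of 404 kb carried 12 islands over 48.4 kb on day 0 (12.0% of the body) and 3 islands over 8.8 kb on day 3 (2.18%). The day 0 islands held 1764 reads (95% Poisson interval 1683 to 1848) at a mean of 36.4 reads per kb, and the day 3 islands 453 reads (412 to 497) at 51.5. The longest part without a day 3 island was the downstream end of the gene. From the last day 3 island to the end of the body, 228.7 kb carried no day 3 island but 5 whole day 0 islands and the end of another. These 5 held 35.3, 41.1, 44.2, 40.9 and 47.8 reads per kb, so each was denser than the least dense day 3 island. For the first of them the Poisson interval of the density (29.4 to 42.0) held that lowest day 3 density. The last, of 1.8 kb with 86 reads, was the densest day 0 island of all 7 windows. Elsewhere in the body the days overlapped in 3 day 0 islands, over 3.8 kb in all. In the 100 kb on each side islands covered 20.2 kb in naive and 13.9 kb in cultured cells.

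Frmd4a (chr2:4017650-4614043) encodes a scaffold with a FERM domain that acts in epithelial polarity. It is the longest of the 7, and its body of 596 kb carried 12 islands over 55.6 kb on day 0 (9.32%) and 6 islands over 19.4 kb on day 3 (3.25%). Mean densities were 34.3 reads per kb (1907 reads) and 53.1 reads per kb (1031 reads). The days met in a single pair of islands, of 4 kb on day 0 and 4.6 kb on day 3, that shared 3.2 kb. A stretch of 293.6 kb in the middle of the gene had no day 3 island and held 8 day 0 islands. The longest of these 8, of 9.6 kb with 333 reads (34.7 reads per kb), is the one just beyond the start shown above. The flanks went the other way, with 11.6 kb covered in naive and 25.6 kb in cultured cells, so the excess of day 0 over body and flanks together was 22.2 kb against 36.2 kb over the body.

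Slc25a21 (chr12:56712634-57197472, minus strand) encodes the mitochondrial carrier for oxodicarboxylates, intermediates of lysine and tryptophan breakdown. Its body of 485 kb carried 10 islands over 51.6 kb on day 0 (10.6%) and 5 islands over 16.2 kb on day 3 (3.34%). The day 0 islands were uneven along the gene. A stretch of 248.8 kb had none, and 8 of the 10 lay between that stretch and the outer start, among them the island over the inner start. Of the 5 day 3 islands, 3 overlapped a day 0 island, with 7.4 kb shared. Beyond the outer start, towards the neighbouring gene Mipol1, day 3 islands were numerous. The flanks held 10.6 kb in naive and 34.9 kb in cultured cells, and Mipol1 as a whole 11.8 kb in naive and 86.4 kb in cultured cells. The excess of day 0 thus fell from 35.4 kb over the body to 11.1 kb over body and flanks, and with flanks of 200 kb the difference was -23.4 kb, more on day 3.

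Garem1 (chr18:21127342-21300139) encodes an adaptor that links growth factor receptors to the MAP kinase pathway through Grb2. Its body of 173 kb carried 6 islands over 38.7 kb on day 0 (22.4%) and 2 islands over 3.4 kb on day 3 (1.97%). None of the 11 day 0 islands of the body and flanks overlapped a day 3 island, beside 33.6% of the whole day 0 list that did. The day 0 islands of the body held 1318 reads at a mean of 33.5 reads per kb, and the longest, of 14.2 kb with 461 reads, held 32.5 reads per kb. The day 3 islands were short, of 1.6 and 1.8 kb, with 113 and 114 reads, and dense, at 70.6 and 63.3 reads per kb. In the flanks 28.7 kb were covered on day 0 and none on day 3. The gap between the days over body and flanks, 64 kb, was the widest of the 7. The neighbour Mep1b, which encodes a subunit of the protease meprin, had islands over 10.7 kb on day 0 only, and the ubiquitin ligase gene Rnf138 had islands over 7 kb on day 3 only.

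Rnf220 (chr4:117271463-117497052, minus strand) encodes a RING-type ubiquitin ligase that acts on Wnt and hedgehog signalling. It was the only gene of the 7 without any day 3 island in its body. On day 0 its body of 226 kb carried 5 islands over 23.6 kb (10.5%) with 853 reads. Of these, 3 were short (2.4, 3.2 and 2.6 kb) and held 42.1, 44.7 and 40.4 reads per kb, and 2 were longer (6.4 and 9 kb) and held 33.0 and 32.6. The denser 3 lay towards the downstream end of the gene. Beyond the upstream end, both days carried islands, over 25.2 kb in naive and 19.6 kb in cultured cells. The neighbouring exonuclease gene Eri3 lies there.

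Fto (chr8:91313367-91668433, plus strand) and Rpgrip1l (chr8:91217030-91313291, minus strand) start beside each other and run apart. Fto encodes a demethylase of methylated adenosine in RNA, and Rpgrip1l a protein of the transition zone at the base of the primary cilium. Rpgrip1l, the shortest of the 7 with a body of 96.3 kb, had the largest covered share, with 5 islands over 45 kb on day 0 (46.7%) and 4 islands over 16.8 kb on day 3 (17.5%). The 2 days shared more sequence here than in the other genes, since 11.6 of the 16.8 kb covered on day 3 lay inside day 0 islands. The longest day 0 island of all 7 windows, of 17.8 kb with 573 reads, lay here, and a day 3 island of 5.6 kb with 300 reads lay wholly inside it. All 5 day 0 islands of Rpgrip1l were less dense than any day 3 island, at 31.2 to 33.6 reads per kb. Fto had the smallest difference, with 4 islands over 19.2 kb on day 0 (5.41%) and 3 over 10.4 kb on day 3 (2.93%). An island 5.23 kb inside Fto began at the same border on both days, of 4.6 kb with 166 reads in naive cells and 6.2 kb with 305 reads in cultured cells. Fto also held the sparsest body island of the 7, of 6.8 kb with 28.8 reads per kb, and a short island of 2 kb with 47.5 reads per kb, both on day 0. The flank of Fto contains Rpgrip1l, so the 45 kb covered in that flank on day 0 are the Rpgrip1l islands.

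Over body and flanks together all 7 genes were again covered over more kb on day 0, each by at least 10 kb. Among all protein-coding genes with the same flanks, 32.7% were covered more on day 0, 8.36% by at least 10 kb, and 46.0% more on day 3. The flanks alone were covered more on day 0 in 5 of the 7, which follows in part from how the genes were picked. The flanks of Fto and Rpgrip1l each hold islands of the other's body, so these are not separate cases. The share for flanks alone over all genes is not given. Of the 15 other protein-coding genes within 100 kb of a member, 10 carried an island on either day. Their bodies had the longer covered length in naive cells in 6 and in cultured cells in 4. These genes reach into the flanks by which the members were picked, so their counts follow in part from that choice. By gene body alone, 12.1% of all 21900 protein-coding genes had the longer covered length in naive cells, and 21.5% in cultured cells. Efcab2 was covered over 20.9 kb in naive and 17.8 kb in cultured cells and the lysine methyltransferase gene Smyd3 over 26.2 and 35.2 kb, both beside Kif26b. The splicing factor gene Prpf18, next to Frmd4a, was covered over 9.94 and 3 kb. Rbl2, a relative of the retinoblastoma gene, and Aktip, both beside Rpgrip1l, had 10.6 and 5.6 kb on day 0 and no day 3 island. The 5.6 kb of Aktip are an island that also lies in Rbl2. Eri3 was covered over 18.6 and 10.2 kb, and Prps1l3 over 2.57 kb on day 3 only. Of 23 lncRNA genes in the windows, 10 overlapped a day 0 island and 5 a day 3 island, beside 14.6% and 18.7% of all 12731 lncRNA genes. These counts follow in part from the choice of the windows. Gm36163, which lies within Rpgrip1l, had 15.1 and 6 kb.

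The read density of the day 0 islands bears directly on how far the difference in covered length can be read. Each island counted once, the 7 windows held 75 islands on day 0, 54 of them over a member body, and 45 on day 3, 23 of them over a body. Those of day 0 ran from 28.5 to 47.8 reads per kb (median 34.7) and from 1.8 to 17.8 kb (median 4.4 kb). Those of day 3 ran from 44.8 to 76.2 reads per kb (median 53.8) and from 1.6 to 10.2 kb (median 3 kb). The densities of the 2 days hardly overlapped, and none of the 75 day 0 islands reached 52.9, the median of the whole day 3 list. The whole day 0 list was low too, with an upper quartile of 36.7 reads per kb. Of the 75 day 0 islands, 40 (53.3%) were at or above the lowest density of the whole day 3 list and 35 below. Over the whole day 0 list, 49.6% were at or above it. The values nearest to that limit were 33.6 (Frmd4a) and 34.0 (Garem1) below it, and 34.5 in a pair of Slc25a21 islands above it. For 65 of the 75 islands the Poisson interval of the density, which covers counting error only, held the limit. It lay wholly below in 3 islands, in Fto and in the flanks of Frmd4a and Garem1, and wholly above in 7, of which 4 lay in Kif26b, 2 in Rnf220 and 1 in Fto. The islands below the limit were the longer ones, with a median of 5.8 kb against 3.6 kb above it. Over the whole day 0 list the medians were 5.4 and 4 kb.

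**Figure D3:**
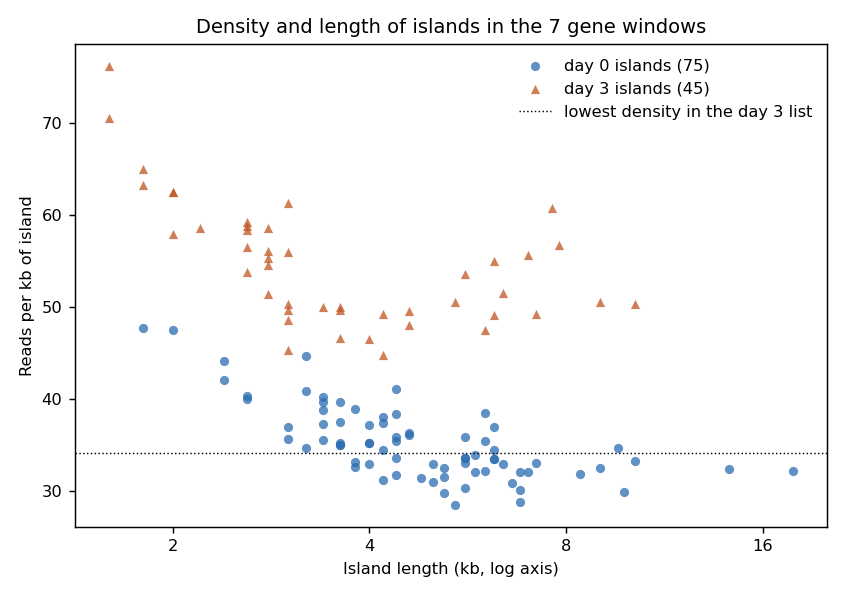
Reads per kb against length in kb (log axis) for the 75 day 0 islands (circles) and 45 day 3 islands (triangles) of the 7 windows. The dotted line is the lowest density in the whole day 3 list, 34.1 reads per kb, and 35 of the day 0 islands lie below it.

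When only islands at or above that limit were counted, 5 of the 7 bodies were still covered more on day 0. The share over all protein-coding genes, which unlike the 7 were not picked for covered length, was 5.43%. Kif26b then had 33.6 kb in naive and 8.8 kb in cultured cells, Frmd4a 34.6 and 19.4 kb, Slc25a21 20.4 and 16.2 kb, Garem1 13.6 and 3.4 kb, and Rnf220 8.2 kb and none. Islands less than 1 read per kb above the limit made up 16.4 kb of the Frmd4a and 14 kb of the Slc25a21 value. With the limit raised by 1 read per kb, a setting chosen after seeing the data, Frmd4a had 18.2 kb in naive and 19.4 kb in cultured cells and Slc25a21 6.4 and 16.2 kb, so that 3 of the 7 bodies, Kif26b, Garem1 and Rnf220, were covered more on day 0. The order turned already at the lower limit in Fto, with 6.6 kb in naive and 10.4 kb in cultured cells, and in Rpgrip1l, which lost all its day 0 islands and had 16.8 kb on day 3. Over body and flanks, only Kif26b, Garem1 and Rnf220 were covered more on day 0 at either limit, beside 14.5% of all genes at the lower one. The limit is not corrected for depth. The lowest density divided by the list's own median was 0.692 in the day 0 list and 0.645 in the day 3 list, so on that relative scale no day 0 island lies below the lowest day 3 value. The nominal number of reads is the same for both libraries, and the part of actual depth in the difference was not tested.

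**Figure D4:**
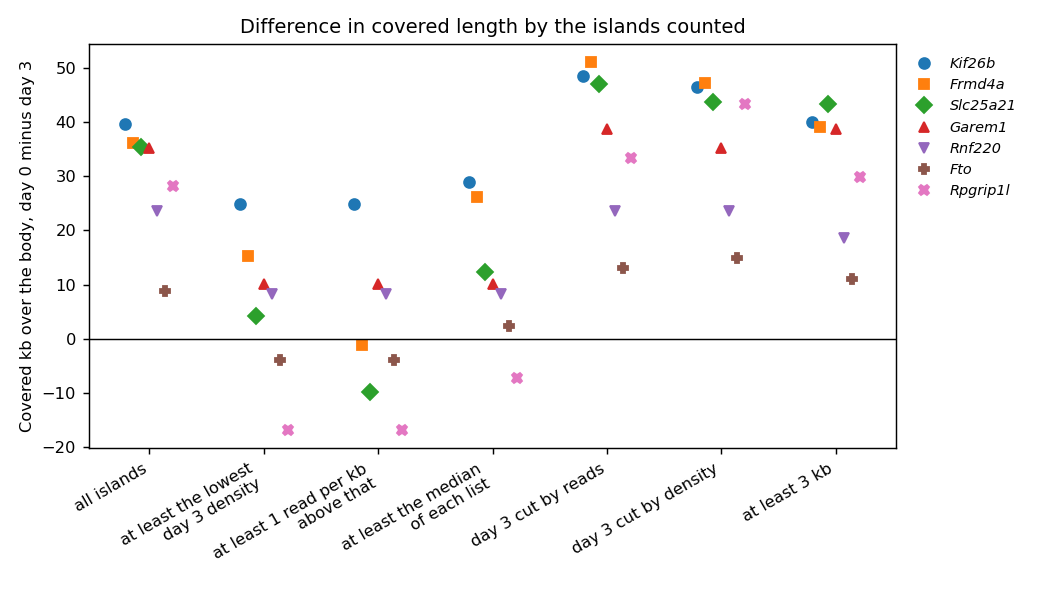
Covered kb over the gene body, day 0 minus day 3, for each gene (symbols) under 7 choices of the islands counted. Values above 0 mean more on day 0. Rpgrip1l falls below 0 under all 3 density limits, Fto under both limits set by the lowest day 3 density, and Frmd4a and Slc25a21 when that limit is raised by 1 read per kb, while Kif26b stays between 24.8 and 48.4 kb.

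Where an island was called on both days, the density ratio of the days was of the size seen across the lists. The 7 windows held 16 overlapping pairs, with a median of 1.48 times as many reads per kb on day 3 (quartiles 1.38 and 1.67, range 1.33 to 2.27). All 7306 pairs of the lists had a median of 1.57 (quartiles 1.43 and 1.72). Of the 75 day 0 islands, 16 (21.3%) overlapped a day 3 island, against 33.6% of the whole day 0 list. Of the 45 day 3 islands, 15 (33.3%) overlapped a day 0 island, against 14.9% of the whole day 3 list. These shares follow in part from how the genes were picked and are given without a test. The other 59 day 0 islands lay a median of 26.8 kb from the nearest day 3 island, from 0.6 to 191 kb, and 9 of them within 5 kb. The same distance over the whole day 0 list is not given, so whether these values are unusual is not known.

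Outside the 7, and predicted genes aside, the protein-coding genes with the largest excess of covered body length on day 0 were Tbxas1, Adamtsl1, Magi1, Cacna1c and Nav2, at 30.6 to 34.4 kb. This excess rests on 1 library a day, and it lies between those of Garem1 (35.3 kb) and Rpgrip1l (28.2 kb). Tbxas1, which encodes thromboxane synthase, had islands over 45.6 kb in naive and 11.2 kb in cultured cells. Adamtsl1 had 68.2 and 35.4 kb, the calcium channel gene Cacna1c 52.6 and 21 kb, and Nav2 37.2 and 6.6 kb. The scaffold gene Magi1 had 31.6 kb and none, but all 5 of its day 0 islands lay below the lowest day 3 density, as in Rpgrip1l. At or above it were 3 of 7 day 0 islands in Tbxas1, 5 of 14 in Adamtsl1, 7 of 12 in Cacna1c and 5 of 9 in Nav2.

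**Figure D5:**
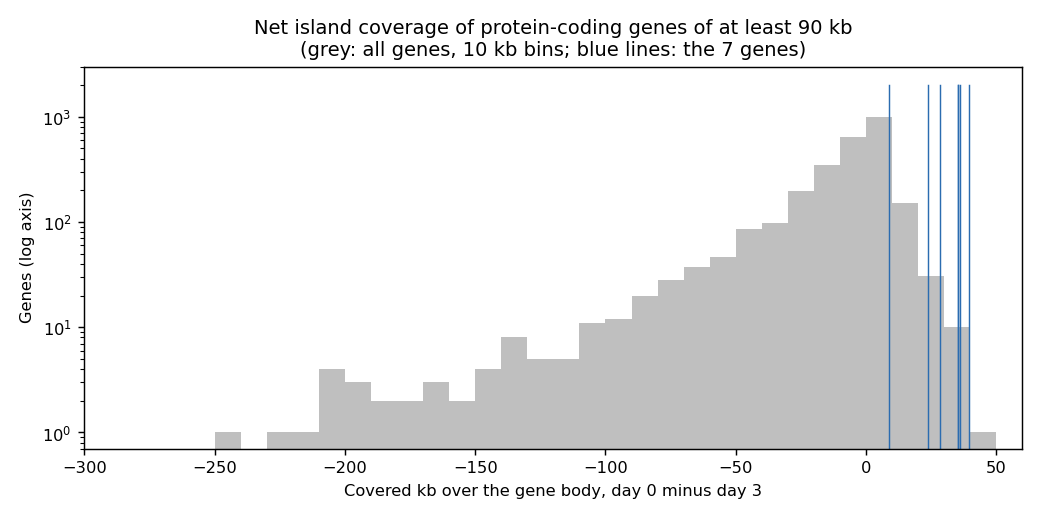
Number of genes (log axis) by covered kb over the body, day 0 minus day 3, in 10 kb bins for the 2759 protein-coding genes of at least 90 kb, with 1 blue line for each of the 7 genes. The distribution reaches much further towards day 3 than towards day 0, and 6 of the 7 genes lie above 20 kb.

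The counts for related genes stand beside the 12.1% of all protein-coding genes with more covered kb on day 0 and the 21.5% with more on day 3. Of 60 paralogs and family members (Kif26a, other Frmd genes, Garem2, all other Slc25a carriers and the Alkbh demethylases), 12 overlapped a day 0 island and 19 a day 3 island. The covered length was greater on day 0 in 8 and on day 3 in 13, shares near those of all genes, and 39 had no island, with a median difference of 0 kb, as over all protein-coding genes. Frmd4b, the closest relative of Frmd4a, had islands over 28.8 kb in naive and 36.4 kb in cultured cells, Frmd5 over 10.4 and 30.5 kb and Frmd3 over 20 and 12.2 kb. Among the carriers, Slc25a12 had 10.2 and 6.6 kb, and Slc25a13 had 14.4 kb on day 3 only. Fto belongs to the genes that write, read or erase methylated adenosine in RNA. Of 14 others none had more covered kb on day 0 and 8 had more on day 3, with a median difference of -3.79 kb (day 0 minus day 3). The writer subunit gene Zc3h13 had 6.2 and 38.8 kb, and the reader genes Ythdc2 and Ythdf3 had 5.8 and 29.7 kb, and 4.64 and 26.4 kb. Of 15 transition zone genes besides Rpgrip1l, 3 had the greater covered length in naive and 4 in cultured cells. Rpgrip1 and Tctn3 had 7.2 and 3.4 kb on day 0 and no day 3 island. Cep290 had 16.6 and 30.6 kb. The homeobox genes Irx3 and Irx5, on which enhancers within the Fto locus are known to act, and their neighbour Irx6 had no island on either day. Of 6 genes tied to Rnf220 in Wnt and hedgehog signalling, Gli3 alone had islands, over 17.4 and 5.2 kb.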

How the data were processed

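H3K9me3 ChIP reads of 1 library per day were analysed as island lists. The submitters' processing notes name Bowtie2, SICER version 1.1 and the mm10 build. The settings of the island caller, duplicate handling and any use of input were not given in the sources used here. The value of each island was read as a raw count of ChIP reads, as deposited by the authors without a header and unscaled for depth. Island starts and ends follow a grid of 200 bp, and positions were converted to 1-based. Covered length was summed over gene bodies in the RefSeq table (GRCm38.p6, which is mm10), with 100 kb on each side. Intervals are 95% exact Poisson for counts, and cover counting error only, since PCR copies are not told apart. The table gives no exons, so exonic and intronic positions were not computed. Overlap needed 1 bp.

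The members and lists were chosen with earlier results of these data known. Named were the 7 members, protein-coding neighbours within 100 kb with an island, the 5 genes with the largest net covered kb on day 0 (no Gm or Rik symbols), and up to 10 genes with an island per list. The values of 1 listed gene are not reported here. Trac was not in the table among protein-coding genes. Coverage code was tested on simulated data. Python 3.11.15, numpy 2.4.6, pandas 2.3.3 and scipy 1.17.1 were used. Alternatives changed the islands counted, the list length, the flank and the overlap.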

Additional observations from a re-analysis of the deposited data

How the results depend on the processing

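No paired analysis was possible because each day had 1 ChIP library and no test was made. The number of members covered more on day 0 over the body (7) was 5 with islands at least as dense as the least dense day 3 island, 6 with islands at or above their list's median, and 7 with islands of at least 3 kb. It was also 7 with the day 3 list cut to the day 0 number by reads or by density, which cannot lower it. With the first limit raised by 1 read per kb, chosen after seeing the data, it was 3. Over body and flanks it was 3 with the first limit and with the raised one, 5 with the median limit, 6 with 200 kb flanks and 7 otherwise. Of all protein-coding genes, 32.7% were covered more on day 0 over body and flanks as deposited and 14.5% with the first limit. That share is not given for the other settings, so their counts cannot be set against all genes. With the first limit the difference (day 0 minus day 3) turned to -3.8 kb in the Fto body, -16.8 kb in the Rpgrip1l body, and over body and flanks to -10.4 kb in Frmd4a, -20.1 kb in Slc25a21, -23.6 kb in Fto and -20.4 kb in Rpgrip1l. The raised limit gave the same values in Fto and Rpgrip1l, and turned Frmd4a to -1.2 kb and Slc25a21 to -9.8 kb over the body, and to -26.8 and -34.1 kb over body and flanks. With the median limit it was -7.2 kb in the Rpgrip1l body, and -4.8 kb in Fto and -4.6 kb in Rpgrip1l over body and flanks. Slc25a21 turned to -23.4 kb with 200 kb flanks. In these windows all 3 limits leave out day 0 islands, the median limit leaves out day 3 islands too, and other causes were not tested. The share of protein-coding genes covered more on day 0 (12.1%) was 5.43%, 4.07% and 8.8% with the first, raised and median limits, 15.1% and 18.5% with the day 3 list cut to the day 0 number by reads and by density, and 12.7% with islands of at least 3 kb. Of the day 0 islands, 16 of 75 overlapped a day 3 island. With the first, raised and median limits 8 of 40, 7 of 34 and 4 of 40 did. With the day 3 list cut by reads and by density 8 of 75 and 4 of 75 did. It was 10 of 69 with islands of at least 3 kb and 6 of 75 when 50% of the island had to overlap. The same shares over the whole day 0 list are not given for these alternatives. Without replicates and exact library totals, the spread between cultures is not known, and the depth behind a missing island only as the nominal figure of the labels.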
